A study of Apis mellifera with 13 samples.

Results

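Cytochromes P450 are haem enzymes that insert an oxygen atom into their substrates. In insects they oxidise plant compounds and pesticides, are thought to clear odorants around the sensory cells of the antenna, and make hydrocarbons, ecdysteroids and juvenile hormone. They are grouped into the CYP2, CYP3, CYP4 and mitochondrial clans, of which the CYP3 clan holds most enzymes of detoxification and the CYP2 and mitochondrial clans hold most enzymes of hormone synthesis. The members described here are the genes whose symbol is CYP followed by a family number and a subfamily letter, which gave 37 of the 13414 genes in the antennal tables. Of these, 21 belong to the CYP3 clan, 3 to the CYP4 clan, 7 to the CYP2 clan and 6 to the mitochondrial clan, and 32 have a Beebase ID.

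RNA came from antennae of adult Apis mellifera workers, in 4 libraries of VSH bees (workers seen opening or emptying Varroa-infested brood cells), 4 of NVS bees (workers of the same observation hive never seen at these tasks), 2 of foragers (FOR) and 3 of nurses (NUR). The paper describes the colonies of its behavioural work as hybrids of ligustica and carnica. VSH and NVS bees hatched from frames of a single donor colony that had been chosen for high VSH performance. Foragers carrying pollen and nurses tending young larvae came from standard hives. The libraries VSH1 to VSH4 held bees with a mean age of 7.5, 9.75, 12.5 and 17 days, and NVS1 to NVS4 bees of 7.5, 9.5, 12.25 and 17.5 days. No age is given for FOR and NUR. Each library pools antennae of several bees, and the only differences between groups that the labels name are behaviour and age. Values are pseudo-counts, read counts per gene that the authors scaled to a common library size, separately for the VSH and NVS table and for the FOR and NUR table.

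The antennal identity of the samples was checked first. All 8 antennal genes on the marker list (such as the odorant receptor co-receptor gene Or2 and the odorant-binding protein genes Obp1 and Obp2) were above 0 in every library, and their sum lay between 871522 and 1066560 in VSH, 807946 and 1050960 in NVS, 1455420 and 1502700 in FOR and 1503920 and 1607780 in NUR libraries. Fat body and haemolymph genes summed to 1491 to 4756 in VSH and 1117 to 1482 in NVS libraries, highest in VSH4. Muscle genes summed to 273 to 2044 in VSH and 345 to 443 in NVS libraries, also highest in VSH4. Among foragers and nurses the library NUR2 stood apart: genes of the cuticle of young adults summed to 53438 in NUR2 and to 15461 in NUR1 and 13337 in NUR3. Haemocyte genes summed to 1517 and 2039 in FOR and to 2788, 3263 and 3087 in NUR libraries, and muscle genes to 628 and 698 in FOR and to 499, 257 and 529 in NUR libraries, without overlap in either list. Genes of the hypopharyngeal gland summed to 5979 in FOR3 and 4792 in NUR3 and to between 120 and 194 in FOR2, NUR1 and NUR2. The part of these differences in the P450 values was not tested, and in whole antennae fewer cells of a type and less RNA per cell cannot be told apart.

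The 37 P450 genes together took up 2.54% to 2.99% of all pseudo-counts in VSH libraries and 2.62% to 2.82% in NVS libraries. In foragers the share was 2.66% and 2.68%. In nurses it was 2.73% in NUR1, 1.65% in NUR2 and 2.51% in NUR3, so that NUR2 was lower than the other 12 libraries. Nearly all of these pseudo-counts belonged to the CYP3 clan, with 99.7% of the P450 sum in every VSH and NVS library and between 98.9% and 99.7% in FOR and NUR libraries. Values were not divided by transcript length, so that shares describe reads and not molecules.

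CYP6AQ1 (GB52023), a CYP6 enzyme of the CYP3 clan, was read at 385218, 364814, 331478 and 344507 pseudo-counts in VSH1 to VSH4 and at 347547, 325455, 322104 and 347036 in NVS1 to NVS4. This was between 62.3% and 65.9% of the P450 sum of each of these libraries and 1.64% to 1.94% of all their pseudo-counts. In foragers it was at 578537 and 578434, and in nurses at 604738, 359068 and 568936. The groups overlapped in both tables, with log2 fold changes of 0.09 in VSH against NVS (95% interval -0.29 to 0.47) and 0.22 in FOR against NUR (-0.78 to 1.21). These intervals draw on a variance trend over all genes tested. Without that trend the interval in VSH against NVS was -0.07 to 0.24. NUR2 held the low value of nurses.

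The CYP6AS subfamily, which includes enzymes that oxidise the pollen flavonoid quercetin (CYP6AS3, CYP6AS4 and CYP6AS10), had 11 members. Their sum was 17.0% to 18.4% of the P450 reads in VSH, 17.0% to 20.7% in NVS, 17.6% and 19.1% in FOR and 18.0% to 18.8% in NUR libraries. CYP6AS3, CYP6AS4, Cyp6as5, CYP6AS11 and CYP6AS13 each had more than 8760 pseudo-counts in every library. CYP6AS7 lay between 3610 and 4153 in VSH and NVS libraries, and CYP6AS8 between 94.5 and 330. The other 4 were at or near 0. CYP6AS15 was listed at 0 in all 13 libraries, and CYP6AS10, CYP6AS12 and CYP6AS17 did not pass the filter on low values in either table. Of the 37 members, 36 matched a reference gene table of the assembly Amel_HAv3.1 by gene ID. In that table CYP6AS7, Cyp6as5, CYP6AS4, CYP6AS12, CYP6AS3, CYP6AS13 and CYP6AS10 lie in this order with at most 2 other genes between neighbours, so that genes with many pseudo-counts and genes near 0 stand side by side. The paper describes reads that aligned uniquely and without ambiguity, so that reads shared by near-identical copies may be missing from the counts of each. This was not tested, and the values of single CYP6AS genes are uncertain to that extent.

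The 3 CYP9Q genes encode enzymes that break down the acaricides tau-fluvalinate and coumaphos in the honey bee. In the reference table CYP9Q2, CYP9S1, CYP9Q3 and CYP9Q1 are neighbours, again with at most 2 other genes between them. The CYP9Q sum was 7.99% to 9.86% of the P450 reads in VSH, 7.57% to 9.49% in NVS, 8.97% and 10.5% in FOR and 6.18% to 7.81% in NUR libraries. CYP9Q2 was at 14053 to 14616 in VSH and 11953 to 14874 in NVS libraries, and at 20043 and 23524 in FOR and 18193 to 22029 in NUR libraries. It overlapped between the groups in both tables.

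Enzymes of hormone synthesis had far fewer pseudo-counts, and 1 of those described here was listed at 0. In Drosophila, CYP306A1, CYP302A1, CYP315A1 and Cyp314a1 catalyse successive steps from a sterol to 20-hydroxyecdysone, and CYP18A1 inactivates it. CYP302A1 (GB47901) was listed at 0 in all libraries. CYP306A1 (GB54743) was at 77.9, 81.4, 115 and 91.7 in VSH1 to VSH4, at 89.2, 55.5, 83.2 and 108 in NVS1 to NVS4, at 121 and 187 in FOR, and at 128.8, 123.2 and 105.4 in NUR libraries. Cyp314a1 (GB45651), the last step, was at 16.8, 27.4, 38.6 and 32.7 in VSH and at 34.0, 32.4, 61.5 and 40.3 in NVS libraries, and at 62.9 and 60.2 in FOR and 47.3, 52.6 and 44.7 in NUR libraries. Its FOR libraries lay above its NUR libraries. Its VSH and NVS libraries overlapped, but VSH was lower in 4 of 4 pairs, with a log2 fold change of -0.54 (95% interval -1.10 to 0.019, limma adjusted p = 0.310 in the paired fit). CYP315A1 (GB53709) stayed between 7.96 and 14.5 in VSH and NVS and between 19.0 and 22.8 in FOR and NUR libraries. It was also lower in VSH in 4 of 4 pairs (log2 fold change -0.44, limma adjusted p = 0.608 in the paired fit). Its differences, VSH minus NVS, were -6.28, -6.46, -1.12 and -0.613 pseudo-counts in pairs 1 to 4. The share of all genes with 4 of 4 pairs in 1 direction was not computed. CYP18A1 (GB54765) was at or below 5.18 in all libraries. In the reference table CYP18A1 and CYP306A1 are direct neighbours. CYP15A1 (GB48175), which adds the epoxide of juvenile hormone in other insects, was at 1.397 to 11.7 in VSH and 4.59 to 9.50 in NVS libraries, and at 13.5 and 0.070 in FOR and 24.2, 9.55 and 9.32 in NUR libraries. None of these hormone genes had an unadjusted p under 0.05 in the reported fits of VSH against NVS, FOR against NUR or age. In limma without the variance trend, CYP315A1 had an unadjusted p of 0.0328 in VSH against NVS (limma adjusted p = 0.440).

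The files list a further 2 members at 0 throughout, CYP343A1 and CYP6BE1, which makes 4 of 37 with CYP6AS15 and CYP302A1. Beside these, 4 members fell under the filter in the VSH and NVS table (CYP6AS10, CYP6AS12, CYP6AS17 and CYP303A1) and 3 in the FOR and NUR table (the same without CYP303A1). CYP303A1, whose Drosophila counterpart is needed for sensory bristles, was at 12.5 in NUR2 and at or below 3.36 in the other libraries. The filter left 29 members tested in the VSH and NVS table and 30 in the FOR and NUR table.

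**Figure D1:**
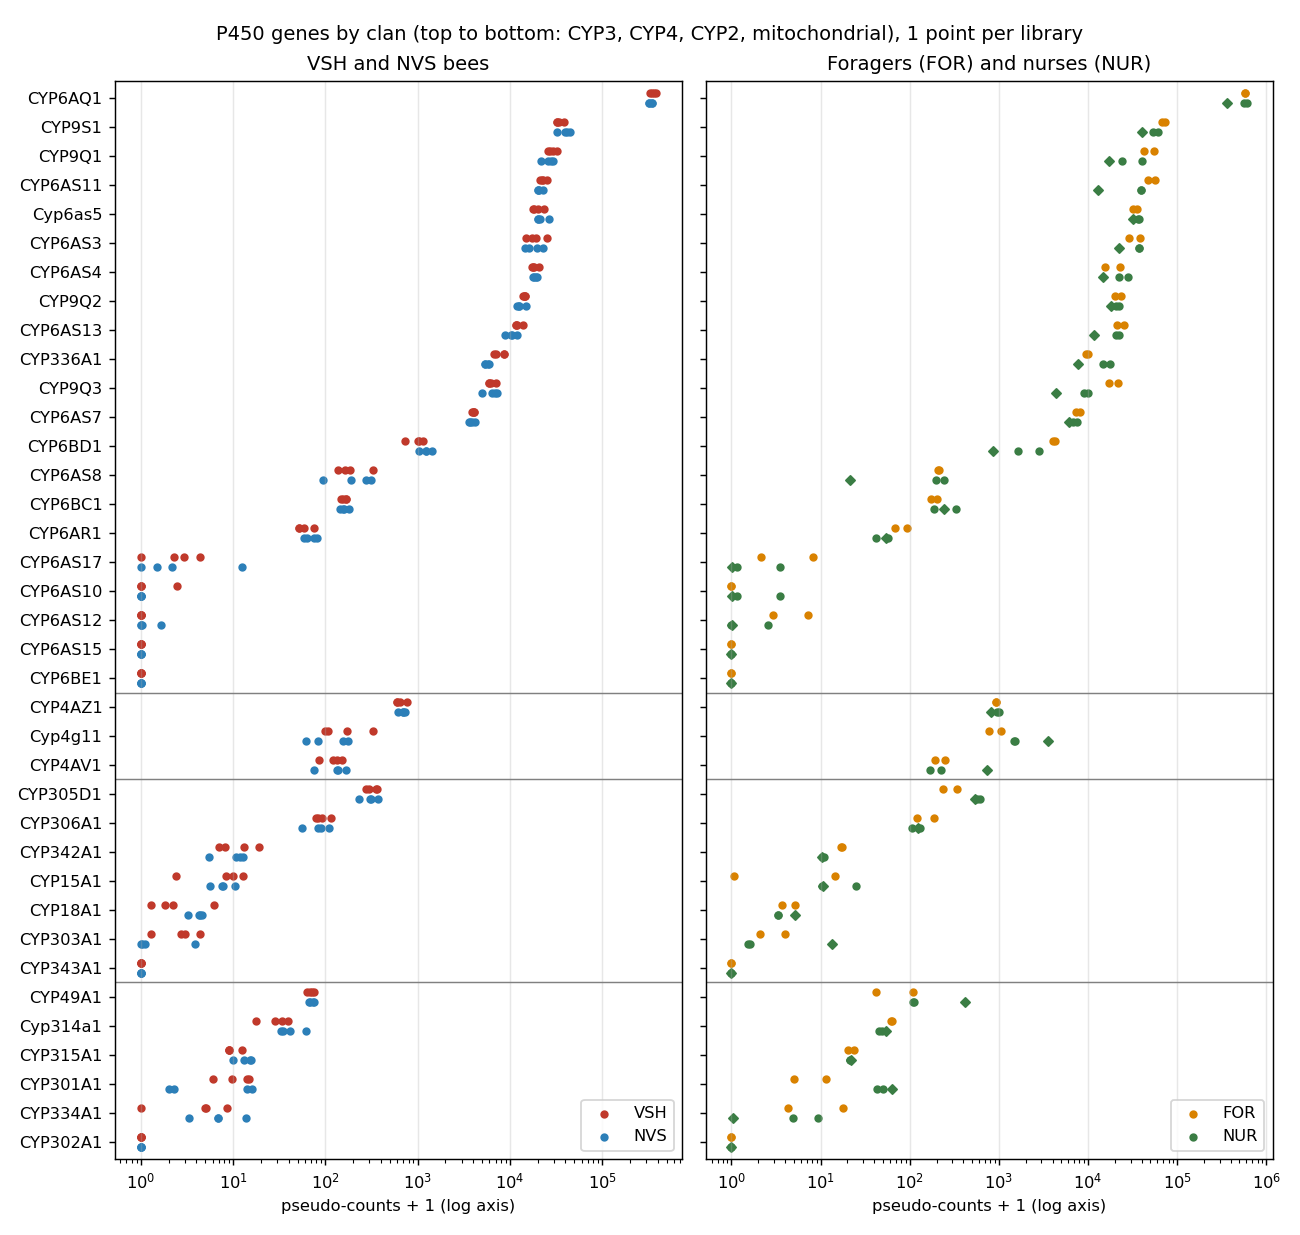
Pseudo-counts plus 1 of the 37 P450 genes on a log axis, 1 point per library, with VSH above NVS in the left panel and FOR above NUR in the right, genes ordered by clan and by mean in the VSH and NVS table, and NUR2 as a diamond. In the left panel CYP6AQ1 lies between 322104 and 385218 and no gene of the CYP2 and mitochondrial clans lies above 374.

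The comparison of VSH with NVS bees asks whether workers that remove infested brood differ in antennal P450 expression from nestmates of the same age that do not. The P450 family was centred near 0. The median log2 fold change of the 29 members tested was -0.0092, against -0.0024 over the 10204 genes tested, and 13 members were positive and 16 negative, where 49.4% of all genes were positive. None of the 29 members passed an adjusted p of 0.05 in limma (4 of all genes did, 0.0392%). At an unadjusted p under 0.05 there were 3 members, 10.3% of those tested, against 11.2% of all genes.

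CYP336A1, a CYP3 clan enzyme, was at 8725, 8668, 6665 and 7045 in VSH1 to VSH4 and at 5358, 5901, 5436 and 5809 in NVS1 to NVS4. The groups did not overlap, and CYP336A1 was the only one of the 29 members of which this is true, against 6.13% of all genes tested in either direction. The group means were 7776 ± 1075 and 5626 ± 269 (SD, n = 4 libraries each), a log2 fold change of 0.46 (SE 0.091, limma adjusted p = 0.102). With libraries of the same number taken as age-matched blocks, the paired fit, CYP336A1 rose in VSH bees (adjusted p = 0.0225), the only member called among 29, where 1.24% of all genes were called. The gap between VSH and NVS was 3367 and 2767 pseudo-counts in pairs 1 and 2, with bees of up to 9.75 days, and 1229 and 1236 in pairs 3 and 4, with older bees. The age slope of VSH minus that of NVS bees was -0.045 per day (95% interval -0.091 to 0.00063, limma adjusted p = 0.999). The paired call was kept without pair 1 (adjusted p = 0.0264) and lost without pair 2, 3 or 4 (adjusted p = 0.0702, 0.0765 and 0.0512). Sums of fat body genes were also higher in each VSH library than in each NVS library (1491 to 4756 against 1117 to 1482), and the part of this in the CYP336A1 values was not tested. The part of the virus reads, higher in NVS bees in the paper, was not tested either.

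CYP6BD1 (GB47279), a CYP6 enzyme, was at 724, 1147, 1047 and 1003 in VSH1 to VSH4 and at 1029, 1228, 1431 and 1230 in NVS1 to NVS4, lower in VSH in each of the 4 pairs although the groups overlapped. The log2 fold change was -0.34 (SE 0.13, limma adjusted p = 0.377, and 0.0585 in the paired fit), and -0.20 without VSH1. CYP6AS13 (GB40287) was at 13738, 11941, 11532 and 11759 in VSH and at 10540, 12064, 8760 and 10202 in NVS libraries, higher in VSH in 3 of 4 pairs, with a log2 fold change of 0.24 (SE 0.095, limma adjusted p = 0.376, and 0.139 in the paired fit). Its neighbour CYP6AS3 had a log2 fold change of 0.06 and CYP6AS4 one of -0.0095.

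In the paired fit 5 of 29 members (17.2%) had an unadjusted p under 0.05, against 17.1% of all genes. The other members were CYP9Q2, higher in VSH in 3 of 4 pairs (log2 fold change 0.15, limma adjusted p = 0.280 in the paired fit), and CYP9S1, lower in VSH in 4 of 4 pairs. CYP9S1 was at 39045, 34484, 32108 and 32567 in VSH and at 45392, 40038, 41192 and 32590 in NVS libraries, a log2 fold change of -0.20 (limma adjusted p = 0.255 in the paired fit). The difference was smallest in the oldest pair, at -22.5 pseudo-counts. In the other direction CYP9Q1 and CYP6AS11, like CYP336A1, were higher in VSH in 4 of 4 pairs, with log2 fold changes of 0.12 and 0.13 for the first 2. CYP9S1 and CYP9Q2 are direct neighbours in the reference table and had fold changes of opposite sign.

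Cyp4g11 (GB51356) belongs to the CYP4G subfamily, whose enzymes finish the synthesis of cuticular hydrocarbons in insects. It was at 327, 171, 97.9 and 107 in VSH1 to VSH4 and at 81.9, 177, 61.5 and 155 in NVS1 to NVS4. The groups overlapped, and VSH was higher in 2 of 4 pairs and lower in the other two. The log2 fold change was 0.52 (95% interval -0.32 to 1.36, limma adjusted p = 0.642) and 0.16 without VSH1. Its highest library had 5.33 times the value of its lowest, the widest range among the 22 members with at least 50 pseudo-counts in each VSH and NVS library, where the median was 1.48 times. The other CYP4 clan genes were steadier: CYP4AZ1 was at 597 to 761 in VSH and 611 to 727 in NVS libraries, and CYP4AV1 at 84.0 to 152 and 73.9 to 167.

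**Figure D2:**
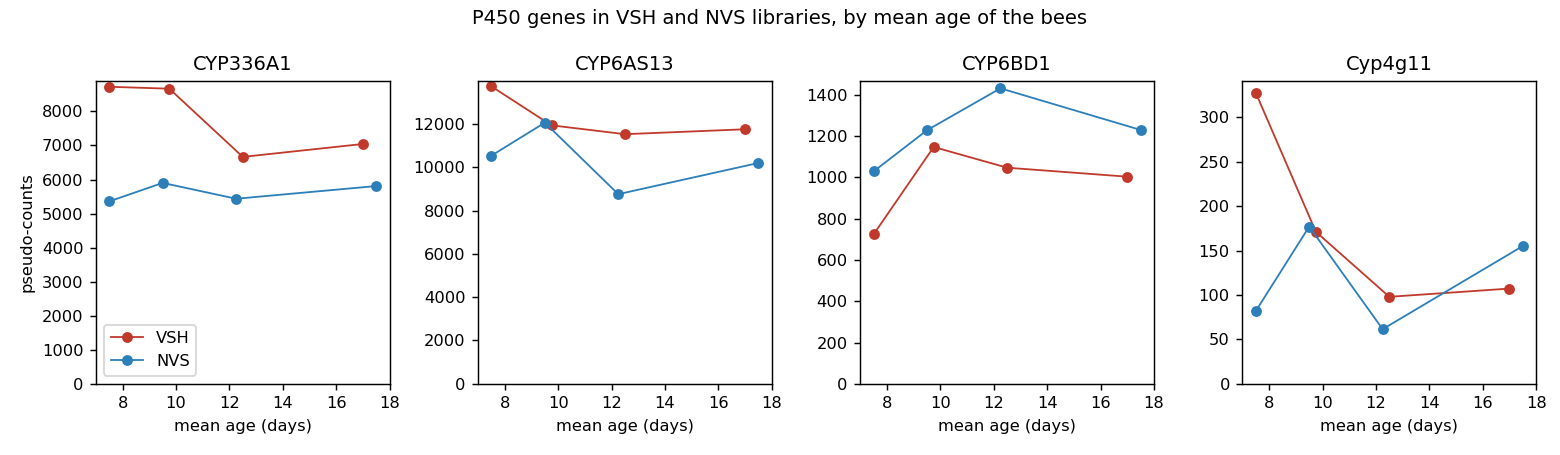
Pseudo-counts of CYP336A1, CYP6AS13, CYP6BD1 and Cyp4g11 against the mean age of the bees in days, 1 point per library, VSH in red and NVS in blue. CYP336A1 is higher in VSH at each age, at 6665 to 8725 against 5358 to 5901, CYP6BD1 is lower in VSH in each pair, and Cyp4g11 is at 327 in the youngest VSH library and at or below 177 in the others.

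**Figure D3:**
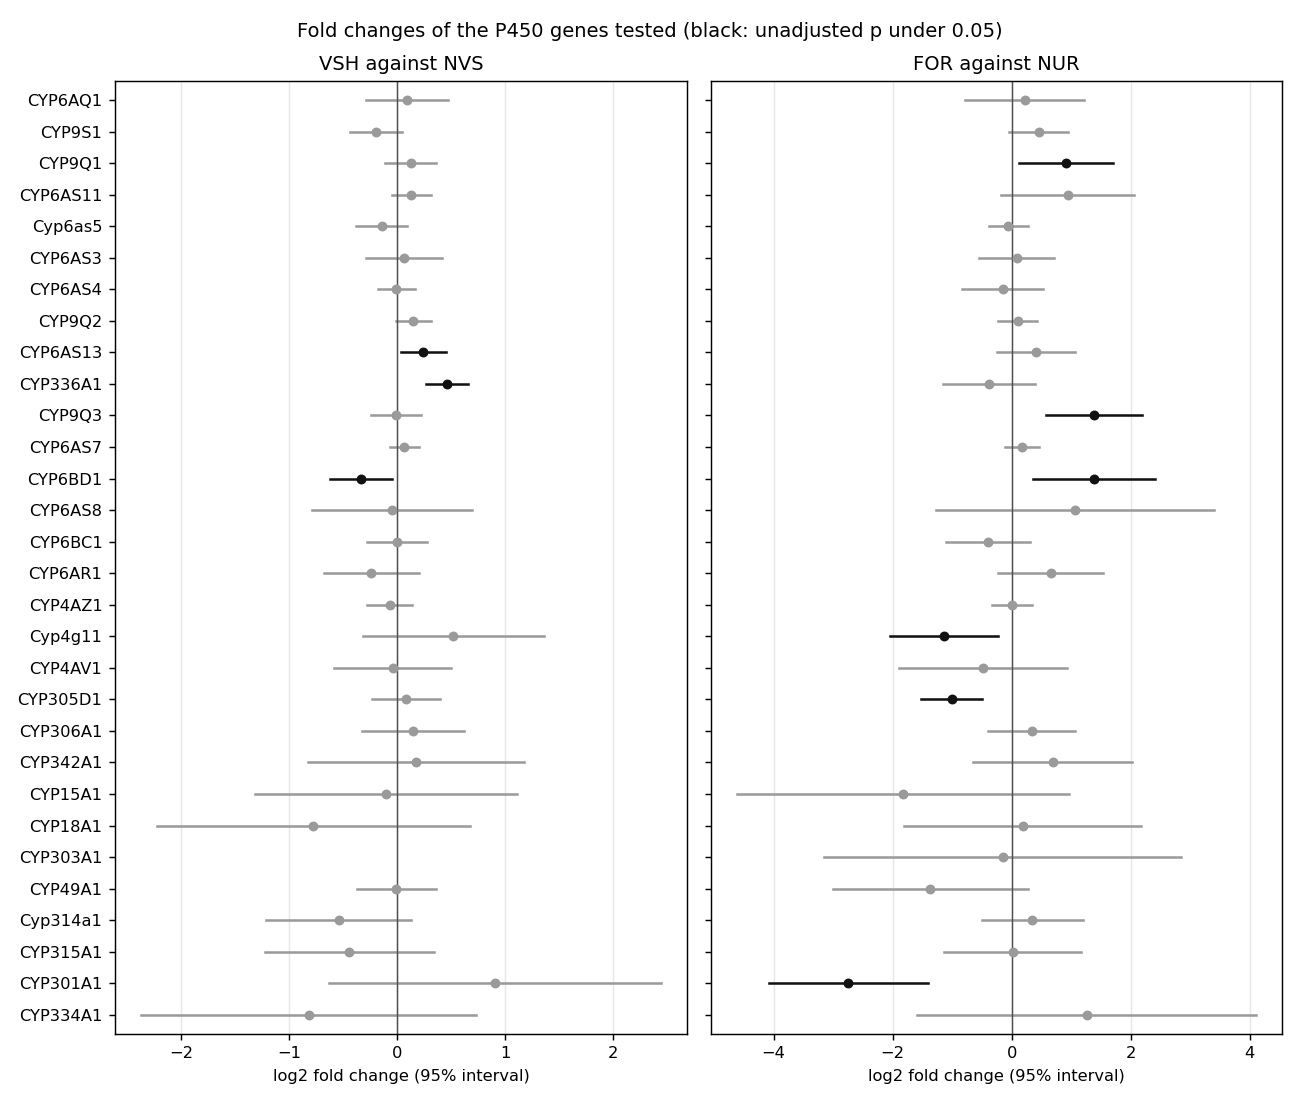
Log2 fold changes with 95% intervals from limma for the members tested, VSH against NVS on the left and FOR against NUR on the right, with genes of an unadjusted p under 0.05 in black. CYP336A1 and CYP6AS13 lie above 0 and CYP6BD1 below 0 on the left, and on the right CYP9Q3, CYP9Q1 and CYP6BD1 lie above 0 and CYP301A1, CYP305D1 and Cyp4g11 below it.

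The mean ages of the VSH and NVS libraries allow an age slope, fitted beside the group. Over the 29 members tested, 21 had a negative slope and 8 a positive one, where 48.8% of all genes tested had a negative one. The members share the same 8 libraries. None passed in limma (0.147% of all genes did), and 4 members (13.8%) had an unadjusted p under 0.05, against 12.3% of all genes.

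CYP6AS3 (GB49887) was at 25266, 19098, 17212 and 15016 in VSH1 to VSH4, from the youngest bees to the oldest, and at 19480, 22983, 14524 and 16140 in NVS1 to NVS4. Its log2 slope was -0.056 per day (SE 0.016, limma adjusted p = 0.181), and its values were lower in both older libraries of each group than in both younger ones. CYP9S1 had a slope of -0.035 per day (SE 0.011, limma adjusted p = 0.244). CYP305D1, a CYP2 clan gene, was at 359, 300, 352 and 274 in VSH and at 313, 374, 305 and 232 in NVS libraries, with a slope of -0.044 per day (limma adjusted p = 0.293), and -0.028 without NVS4. The oldest library was the lowest of each group. CYP9Q1 (GB43713) ran upwards, at 25754, 27099, 29541 and 32158 in VSH and 25667, 21874, 28172 and 29747 in NVS libraries, with a slope of 0.033 per day (SE 0.011, limma adjusted p = 0.267). It was highest in the oldest library of both groups, while its neighbours CYP9Q2 and CYP9Q3 had slopes of -0.016 and -0.0056.

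The difference of the age slope between VSH and NVS bees passed for none of the 29 members, as for none of the 10204 genes (0%), in limma. At an unadjusted p under 0.05 there were 2 members, 6.9% against 2.86% of all genes. They were Cyp4g11, at -0.21 per day in VSH minus NVS, and CYP301A1, at -0.41 per day. CYP301A1 (GB46015), whose Drosophila counterpart takes part in forming the adult cuticle, was at 14.1, 13.2, 5.13 and 8.77 in VSH1 to VSH4 and at 1.03, 1.30, 13.01 and 14.96 in NVS1 to NVS4. The younger libraries were the higher ones in VSH bees and the lower ones in NVS bees. These values are low, and CYP301A1 was not tested under an alternative filter, a minimum mean of 10. Without VSH1, or without NVS1, 0 members had an unadjusted p under 0.05 for this difference.

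**Figure D4:**
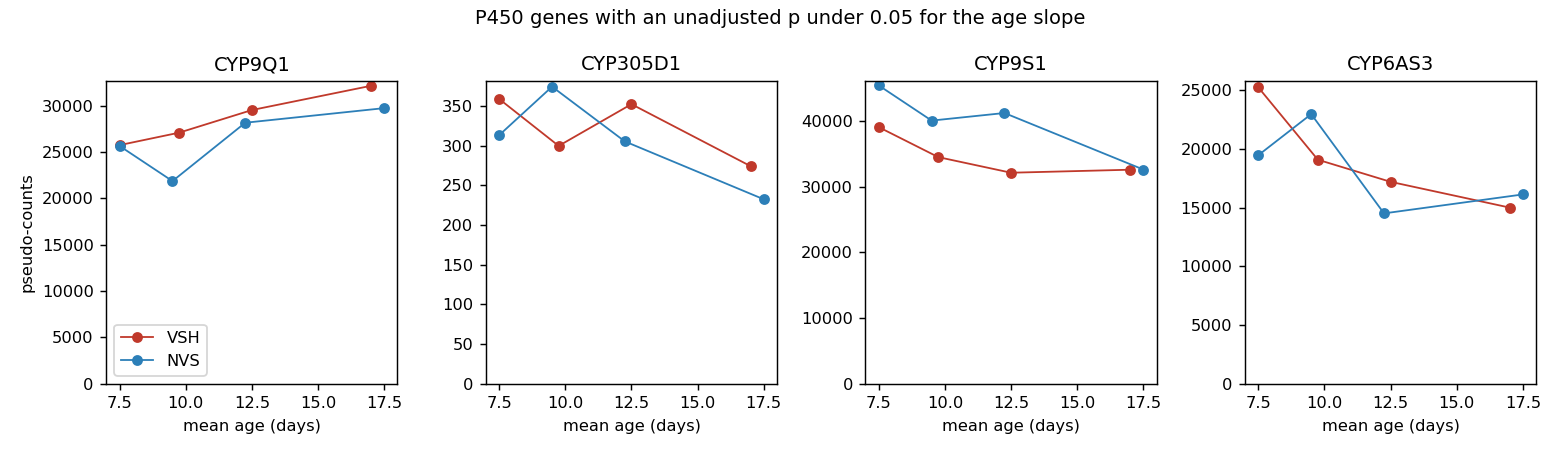
Pseudo-counts of CYP9Q1, CYP305D1, CYP9S1 and CYP6AS3 against the mean age of the bees in days, 1 point per library, VSH in red and NVS in blue. CYP9Q1 is highest in the oldest libraries, at 32158 in VSH and 29747 in NVS, and the other 3 genes have negative slopes, with CYP6AS3 at 25266 in the youngest and 15016 in the oldest VSH library.

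The comparison of foragers with nurses asks how antennal expression differs between outdoor and brood-tending workers. The median log2 fold change of the 30 members tested was 0.14, against 0.00037 over all 10436 genes tested, with 19 members positive and 11 negative (17 and 13 after rescaling to equal totals), where 50.1% of all genes were positive. None of the 30 members passed in limma (0.0958% of all genes did), while 6 (20%) had an unadjusted p under 0.05, 3 in each direction, against 13% of all genes, of which 6.18% were higher and 6.82% lower. FOR and NUR libraries did not overlap for 12 members (40%), 8 higher and 4 lower in foragers, against 32.6% of all genes, of which 16.1% were higher and 16.5% lower. With libraries of the same number as blocks, 0 of the 30 members passed (0.0575% of all genes did) and 8 had an unadjusted p under 0.05, against 15.5% of all genes. No forager library shares the number of NUR1, so that this fit sets NUR1 aside and rests on FOR2, FOR3, NUR2 and NUR3. Its log2 fold changes are those of the fit without NUR1, such as 1.61 for CYP9Q3.

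The 3 members with higher values in foragers at an unadjusted p under 0.05 were CYP9Q3, CYP9Q1 and CYP6BD1. CYP9Q3 was at 17146 and 21684 in FOR2 and FOR3 and at 10020, 4403 and 9077 in NUR1 to NUR3, without overlap. The group means were 19415 ± 3209 (SD, n = 2 libraries) and 7833 ± 3008 (SD, n = 3), a log2 fold change of 1.39 (SE 0.34, limma adjusted p = 0.203). Without NUR2 the log2 fold change was 1.02 (SE 0.14), and CYP9Q3 was called (limma adjusted p = 0.0272). It was the only member called in that fit, where 0.728% of all genes were called. Without NUR1 or without NUR3 it was not called (limma adjusted p = 0.180 and 0.312), at log2 fold changes of 1.61 and 1.54. The call thus depends on leaving out NUR2. Haemocyte and muscle genes also did not overlap between FOR and NUR libraries, and their part in the CYP9Q3 values was not tested. CYP9Q1 was at 42036 and 55431 in FOR and at 40049, 17286 and 24116 in NUR libraries, a log2 fold change of 0.92 (SE 0.34, limma adjusted p = 0.340) and 0.64 without NUR2. The lower forager library lay close to NUR1. The third gene of the subfamily, CYP9Q2, had a log2 fold change of 0.10 (95% interval -0.22 to 0.43). Its neighbour CYP9S1 was at 66994 and 72334 in FOR and at 54181, 40068 and 60651 in NUR libraries, a log2 fold change of 0.45 (limma adjusted p = 0.427).

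CYP6BD1 was at 4240 and 4023 in FOR and at 1649, 847 and 2819 in NUR libraries, without overlap. The log2 fold change was 1.39 (SE 0.43, limma adjusted p = 0.290) and 0.94 without NUR2. CYP6AS11 (GB49876) also did not overlap, at 56477 and 47333 in FOR and at 38864, 12818 and 39172 in NUR libraries, with a log2 fold change of 0.94 and an interval of -0.18 to 2.06. NUR2 supplied the lowest nurse value of each of these genes.

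The 3 members with lower values in foragers at an unadjusted p under 0.05 were CYP301A1, CYP305D1 and Cyp4g11, of the mitochondrial, CYP2 and CYP4 clans. CYP301A1 was at 4.06 and 10.5 in FOR and at 41.6, 62.1 and 48.6 in NUR libraries, a log2 fold change of -2.74 (SE 0.57, limma adjusted p = 0.147) and -2.59 without NUR2. All nurse libraries were at least 41.6, so that the gap did not rest on NUR2, though few reads stand behind the forager values. CYP49A1 (GB46062), a mitochondrial clan gene that is the direct neighbour of CYP301A1 in the reference table, was at 107 and 40.3 in FOR and at 107, 417 and 112 in NUR libraries, a log2 fold change of -1.37 (limma adjusted p = 0.466) and -0.73 without NUR2. The value of FOR2 was close to those of NUR1 and NUR3. In VSH and NVS libraries CYP49A1 was at 63.0 to 74.8 and 65.3 to 74.3, with a highest library at 1.19 times the lowest.

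CYP305D1 was at 340 and 235 in FOR and at 610, 539 and 561 in NUR libraries, means of 287 ± 74.6 (SD, n = 2) and 570 ± 36.4 (SD, n = 3). The log2 fold change was -1.01 (SE 0.22, limma adjusted p = 0.154) and -1.05 without NUR2, and NUR2 lay with the other nurses. CYP15A1 is its direct neighbour in the reference table and had a log2 fold change of -1.83 with an interval of -4.62 to 0.96, at values of 24.2 and below. Cyp4g11 was at 1047 and 779 in FOR and at 1511, 3531 and 1470 in NUR libraries, without overlap, a log2 fold change of -1.14 (SE 0.38, limma adjusted p = 0.310) and -0.72 without NUR2. CYP336A1 was at 9460 and 10006 in FOR and at 14810, 7699 and 17870 in NUR libraries, so that the foragers lay between NUR2 and the other nurses.

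**Figure D5:**
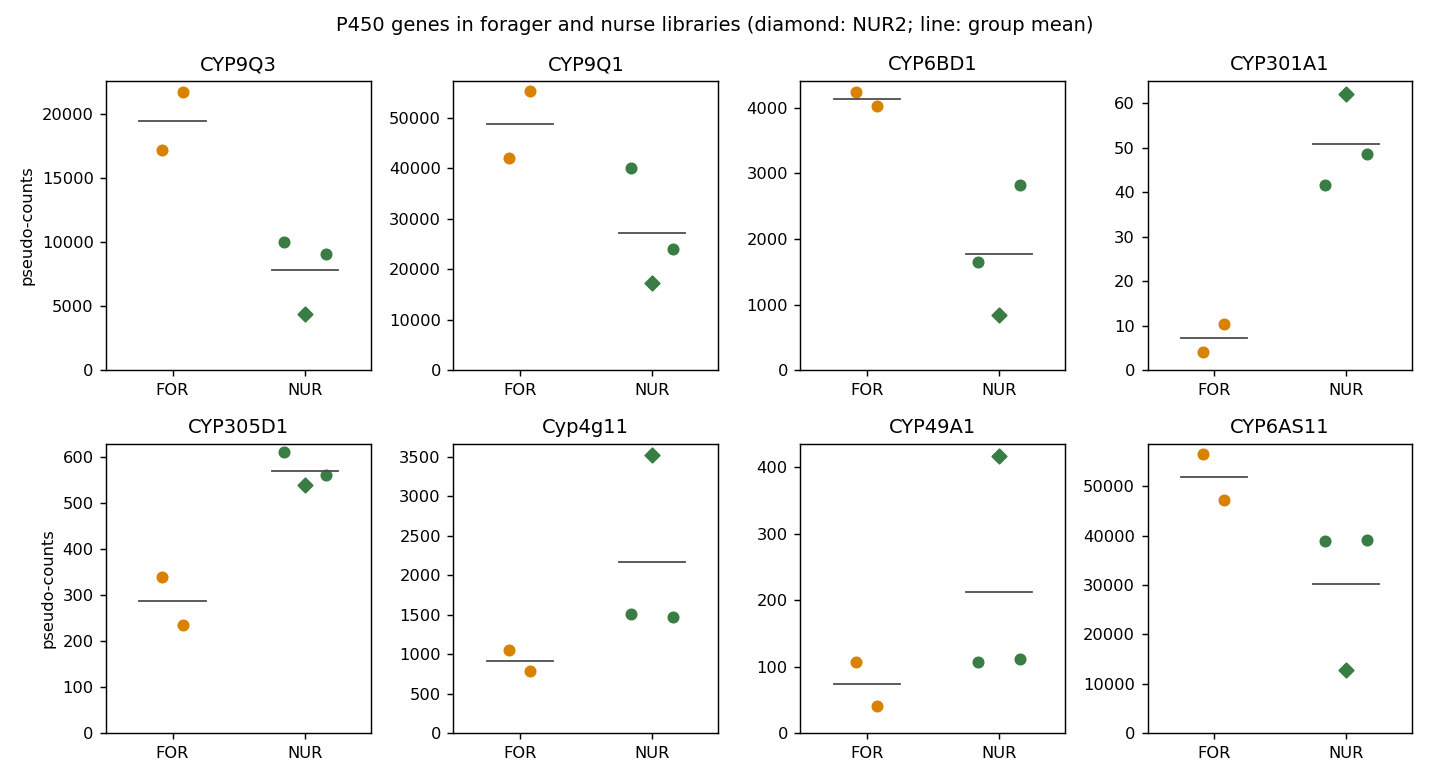
Pseudo-counts of 8 P450 genes in the libraries of foragers (left) and nurses (right), 1 point per library with the group mean as a line and NUR2 as a diamond. CYP9Q3 is at 17146 and 21684 in foragers and at or below 10020 in nurses, CYP301A1 is at or below 10.5 in foragers and at or above 41.6 in nurses, and NUR2 lies with the other nurses for CYP305D1.

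NUR2 carried much of the spread among nurses. It was the lowest of the 5 libraries for 16 of the 30 members tested (53.3%) and the highest for 5 (16.7%), where over all genes tested it was lowest for 27.2% and highest for 27.2%. Of the 14 members with a mean over 1000, NUR2 was lowest for 13 and highest for Cyp4g11. The share over all genes with a mean over 1000 was not computed, so that this count has no background beside it. The other nurses, NUR1 and NUR3, had means of 39018 for CYP6AS11, of which NUR2 had 0.329 times, and of 220 for CYP6AS8 (GB49878), of which NUR2 had 0.0922 times with 20.3 pseudo-counts. CYP6AQ1 in NUR2 was at 0.612 times their mean and Cyp6as5 at 0.869 times. On the other side CYP4AV1 (GB44513), a CYP4 clan gene, was at 737 in NUR2 and 194 on average in NUR1 and NUR3, and CYP49A1 was at 3.80 times and Cyp4g11 at 2.37 times their mean. The sum of young cuticle genes was also highest in NUR2, and its part in these values was not tested.

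Genes that work beside the P450 enzymes were described from lists matched by symbol. Of the P450 partners, Fdxh, a ferredoxin that passes electrons to mitochondrial P450 enzymes, had a log2 fold change of -0.23 in VSH against NVS (limma adjusted p = 0.447) and -0.057 in FOR against NUR. Of 7 glutathione transferases tested, enzymes that conjugate the products of oxidation, 0 passed in the fits without pairs and 1 in the paired fit of VSH against NVS, where 1.24% of all genes did. Of the 7, 6 were positive in VSH and 2 in foragers, against 49.4% and 50.1% of all genes, and the medians were 0.08 and -0.09 against -0.0024 and 0.00037 over all genes. GstU1 had a log2 fold change of 0.55 in VSH against NVS (limma adjusted p = 0.148, and 0.0250 in the paired fit) and -1.80 in FOR against NUR (limma adjusted p = 0.119).

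Of 14 genes of juvenile hormone and ecdysteroid signalling tested, 0 passed in the fits without pairs and 1 in the paired fit of VSH against NVS, where 1.24% of all genes did. At an unadjusted p under 0.05 there were 3 in VSH against NVS and 5 in FOR against NUR, against 11.2% and 13% of all genes. Their medians were 0.06 and 0.04, against -0.0024 and 0.00037 over all genes. Jhe, the esterase that degrades juvenile hormone, had a log2 fold change of -1.51 in FOR against NUR (limma adjusted p = 0.103). Kr-h1, a transcription factor induced by juvenile hormone, had one of 2.35 there (limma adjusted p = 0.117) and -0.99 in VSH against NVS (limma adjusted p = 0.163, and 0.0163 in the paired fit). Of 3 carboxylesterase and glucuronosyltransferase genes (Jhe among them), 3 regulators of the response to foreign compounds and 1 gene of fatty acid transport, 0 passed in either comparison.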

How the data were processed

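According to the paper's methods and the submitters' processing notes, the authors used TopHat2 with Bowtie2 2.2.3 for alignment to the bee assembly 4.5, HTSeq 0.6.1p1 for counts of reads in genes and edgeR 3.4.0 for normalisation. The deposited signal values are the resulting pseudo-counts, made by the authors separately for each table. None of the values above 0 was whole (0% within 1e-06), so that reads and depth per library could not be recovered from them and count tests were not run. The paper reports aligned reads, with a wide range between libraries in both sets, and these were not used here. Values under 1e-10 were set to 0. Genes with a sum of at least 20 (VSH and NVS) or 15 (FOR and NUR) were compared on log2(value + 1) with limma 3.58.1 in R 4.3.3 (trend, two-sided, Benjamini-Hochberg over all genes tested, threshold 0.05), so that fold changes of low genes are understated. The age slope was fitted beside the group. The fits were tested on simulated data.

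VSH and NVS libraries that carry 1 number are close in age, and their deviations from the group means correlated across 8133 genes averaging 50 or more (coefficients of 0.161, 0.215, 0.276 and 0.388), while VSH1 correlated more with NVS2 (0.279) than with NVS1 and VSH2 also with NVS1 (0.132). As every same-number coefficient was over 0.1, a paired fit was run beside the main one. Its values are given where it changes a call and for several genes whose call it does not change. FOR and NUR share the numbers 2 and 3 only. Their same-number coefficients were 0.157 and 0.44, while FOR2 correlated more with NUR1 (0.259) than with NUR2. Deviations of only 2 forager libraries from their mean are mirror images, so that each coefficient of FOR3 is that of FOR2 with the sign reversed (-0.157 with NUR2). These coefficients are therefore not independent and cannot decide whether the numbers mark pairs. Labels give 4 pairs of antennae per library and the methods 8. FOR and NUR libraries came from several standard hives, and no source used here says which number is which hive. VSH and NVS libraries share a donor colony and a hive. The p-values rest on the spread between libraries, with the variance of each gene drawn towards the trend over all genes tested.

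The members, lists and tests were chosen with earlier results of these data known. Values are given for members that passed or had an unadjusted p under 0.05, that the paper names, or that make hormones. A rule on levels per transcript length could not be applied, and members with many pseudo-counts were chosen after their values were seen, as were the steadier genes named beside them. From the lists, Elongin-B, Elongin-C, EloA and Phm matched by symbol but have other functions and were left out. No sequences or coordinates are printed. Alternatives were a pseudocount of 0.5 or 4, other filters and scalings, no variance trend, blocks, age as a covariate and leaving out each library.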

Additional observations from a re-analysis of the deposited data

Results flagged for a closer look

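Over the 29 P450 genes tested in the VSH and NVS table, each group of 4 libraries was searched for a library far from the other 3 on the log2 scale. Of 58 such groups 2 stood out, and chance gives about 1 in 20. Cyp6as5 was at 26427 in NVS2, against 20197 to 20987 in the other NVS libraries. CYP315A1 was at 11.4 in VSH4, against 7.96 to 8.11 in the other VSH libraries.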

How the results depend on the processing

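The number of P450 genes past the threshold in VSH against NVS was 0 in the reported fit and 1 (CYP336A1) with the replicate block. Taken as an addition after the data had been seen, the block without pair 1 gave 1 again and without pair 2, 3 or 4 gave 0. Leaving out a single library gave 0 throughout. In FOR against NUR the number was 0, and also 0 with the replicate block, which sets NUR1 aside. It ranged from 0 to 1 when a library was left out, with 1 (CYP9Q3) without NUR2. For the age slope and its difference between VSH and NVS bees the number was 0 under every alternative run. The paired fit changed no other call of a P450 gene. Of the values of single genes under the alternatives, 236 kept their direction and their side of the threshold and 3 kept their direction and passed it: CYP336A1 with the replicate block and with the block without pair 1, and CYP9Q3 without NUR2. For CYP336A1 the log2 fold change ranged from 0.40 without VSH1 to 0.53 without VSH3. Without VSH1 Cyp4g11 was at 0.16 and CYP6BD1 at -0.20 in VSH against NVS, without NVS4 the age slope of CYP305D1 was -0.028 per day, and without FOR3 CYP49A1 was at -0.68 and without FOR2 at -2.06 in FOR against NUR. Without NUR2 the log2 fold changes of CYP9Q3, CYP9Q1, CYP6BD1 and Cyp4g11 were nearer to 0. Which reads lie behind a value is not known from pseudo-counts, so that the counting error of members with few pseudo-counts could not be given.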
